A study of Mus musculus with 2 samples.

Results

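The genes described here encode the subunits of voltage-gated sodium and calcium channels. They were taken by symbol from the feature list that both libraries share: every gene named Scn with a number and the letter a or b, and every Cacna1, Cacna2d, Cacnb or Cacng gene. The rule used names alone and no measured value. It gave 40 of 33696 genes: 10 sodium channel pores, 4 sodium channel beta subunits, 10 calcium channel pores, 4 alpha2delta subunits, 4 calcium channel beta subunits and 8 members of the calcium channel gamma family.

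RNA was read from single nuclei of mouse hippocampus at postnatal day 19 with a 10x Genomics 3′ chip. The control library came from mice with both Cic alleles floxed (Cicflox/flox), and the other from littermates that carried Emx1-Cre as well (Emx1-Cre; Cicflox/flox). Emx1 drives Cre in the dorsal telencephalic lineage, which gives rise to hippocampal excitatory neurons, astrocytes and part of the oligodendrocyte lineage, but not to most hippocampal interneurons. Cic encodes Capicua, a transcriptional repressor. Tissue of 3 mice per genotype (2 males, 1 female), a single hippocampus of each, went into 1 library, so each group is 1 library of pooled animals, no difference has a replicate check, and no test is given. All intervals are 95% intervals and cover counting error only.

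Cic, the targeted gene, was not lower relative to class totals, beyond counting error, where the label says knockout. CA1-like nuclei held 210 Cic UMIs in the control library and 280 in the other, which is 6.49 and 12.6 CPM (counts of the gene per total counts of the class). Levels of 9.01 and 12.3 CPM were found in dentate granule-like nuclei, 6.89 and 11.7 CPM in CA3-like nuclei, and 9.88 and 9.68 CPM in inhibitory-like nuclei. Over the 15 classes the log2 ratio lay between -0.09 and 0.96, and the intervals of the values below 0 (inhibitory-like and microglia-like nuclei) held 0. Which exons are floxed is not given in the sources used here, and 3′ reads can lie outside a deleted part, so these counts do not check the label. The text therefore speaks of the library labelled knockout.

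After filtering and removal of called doublets, 21782 control nuclei (median 9786 UMIs) and 20569 nuclei of the library labelled knockout (median 8765 UMIs) were used. The libraries shared 166 barcodes after the filter, of 175 in the deposited lists. Nuclei were clustered together and named after marker genes, none of which is a channel gene, and 15 classes had at least 100 nuclei in each library. The median UMI count was lower in the library labelled knockout in 14 of these 15 classes. Dentate granule-like nuclei, 4402 in the control and 3376 in the other library, came from different clusters in the 2 libraries: cluster 1 held 980 and 3255 of them and cluster 3 held 3422 and 121. A second clustering, without channel genes and genes at least 2-fold apart, split the libraries less. Its dentate granule-like clusters held 3539 and 2450 nuclei, and 1125 and 1264. CA2-like nuclei, 148 and 180, included a small cluster with weak markers that held 3 control nuclei and 66 nuclei of the other library. The classes dentate granule-like, CA3-like, CA1-like are called the 3 main excitatory classes below, always in that order. No class size is compared.

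Sodium channel pores carry the inward current that starts and propagates the action potential, and the beta subunits tune their gating and anchor them in the membrane. Calcium channel pores open on depolarisation and let in calcium that drives transmitter release, dendritic signalling, firing patterns and transcription. The alpha2delta and beta subunits bring calcium channel pores to the membrane. Most of the gamma family members expressed in brain are better known as transmembrane AMPA receptor regulatory proteins (TARPs), which carry glutamate receptors to the synapse and shape their currents.

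A gene was counted in a class if its UMIs in both libraries together came to at least 20. Of the 40 genes, 36 reached this in at least 1 of the 15 classes and 19 in every class. The 4 that reached it in none were Cacna1s, the skeletal muscle pore, with 5 control UMIs and 9 in the other library over all classes, and the pores Scn4a (5 and 9), Scn10a (5 and 4) and Scn11a (14 and 9), which are known from muscle and sensory neurons. Among dentate granule-like nuclei, Cacng6 was inside the minimum with 52 and 22 UMIs, and Cacng1 was just outside it with 2 and 11 UMIs.

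The channel genes first separate the classes by their levels within the control library. Levels are compared here only for 1 gene between classes. Among sodium channel pores, Scn1a was highest in inhibitory-like nuclei (561 CPM) and next in CA3-like nuclei (271 CPM). Scn9a was also highest in inhibitory-like nuclei (72.0 CPM), but dentate granule-like nuclei came next (39.1 CPM) and CA3-like nuclei held 7.33 CPM. Scn2a (508 CPM) and Scn3a (270 CPM) were highest in dentate granule-like nuclei. Scn8a, the pore of mature axon initial segments and nodes, was close in its leading classes, with 418 CPM (411 to 425) in CA1-like and 402 CPM (396 to 407) in dentate granule-like nuclei. Scn7a, a relative of the sodium channel pores, was highest in CA3-like nuclei at 7.57 CPM. Within that class it stood at 23.8 CPM in the smaller cluster and 1.75 CPM in the larger one, and it is one of the genes that define the smaller cluster, so that this is a description only.

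The calcium channel pores had different leading classes. Cacna1e, the R-type pore, was highest in dentate granule-like nuclei (1338 CPM), followed by CA1-like (924 CPM) and CA3-like nuclei (731 CPM). Cacna1a, the P/Q-type pore of fast synapses, was highest in CA2-like (1459 CPM) and CA3-like nuclei (1436 CPM), and their intervals overlapped. Cacna1b, the N-type pore, led in inhibitory-like nuclei at 270 CPM. Cacna1c, an L-type pore, reached 1785 CPM in immature dentate granule-like nuclei and only 292 CPM in CA1-like nuclei. Of the 3 T-type pores, which open at low voltage, Cacna1g led in immature dentate granule-like nuclei (57.2 CPM), Cacna1h in dentate granule-like nuclei (79.2 CPM), and Cacna1i in CA3-like and CA1-like nuclei (47.3 and 46.7 CPM).

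Among the accessory subunits, some were read mostly in 1 or 2 classes. Cacna2d2 was 592 CPM in Cajal-Retzius-like nuclei, 88.8 CPM in inhibitory-like nuclei and 17.7 CPM or less in every other class. Cacna2d4 was 28.2 CPM in oligodendrocyte-like nuclei and 4.08 CPM or less elsewhere. Cacna2d1 led in Cajal-Retzius-like nuclei (2778 CPM), Cacna2d3 in CA2-like nuclei (2418 CPM), Cacnb2 in CA1-like nuclei (3172 CPM) and Cacnb4 in subicular or cortical excitatory-like nuclei (790 CPM). Among the TARPs, Cacng2 led in inhibitory-like nuclei (137 CPM), Cacng3 in dentate granule-like nuclei (138.5 CPM) and Cacng8 in CA1-like nuclei (104 CPM). Cacng4 was 461 CPM in oligodendrocyte precursor-like nuclei, against 103 CPM in the next class, cycling progenitor-like nuclei. Cacng5 led in radial glia-like (47.9 CPM) and CA2-like nuclei (34.1 CPM).

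**Figure D1:**
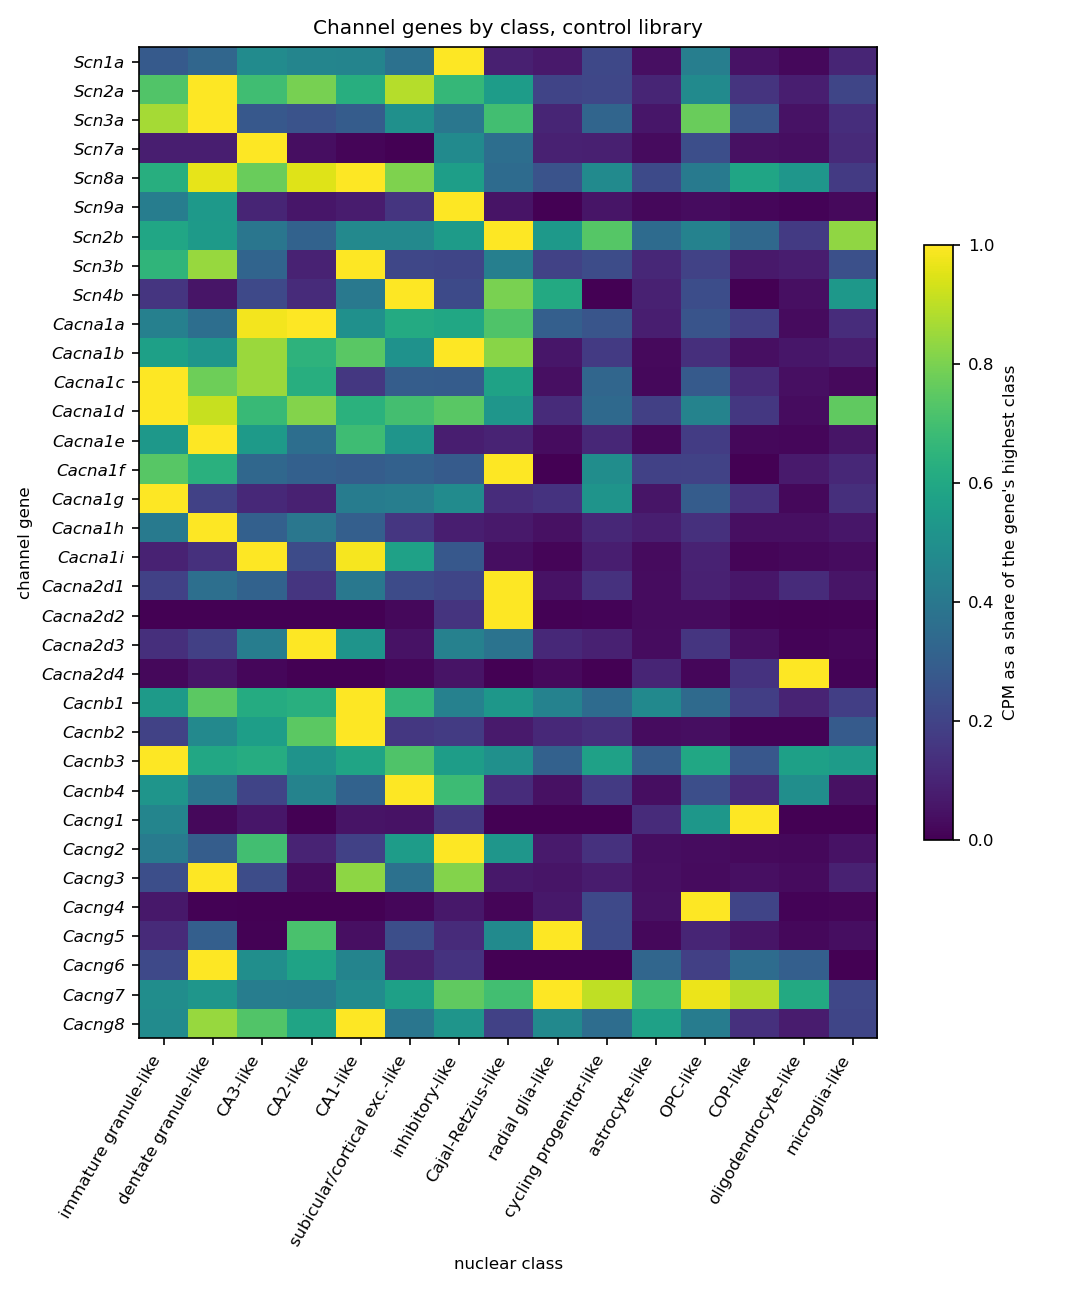
Level of 34 of the channel genes that reached the minimum, in the 15 classes of the control library; colour gives CPM as a share of the highest class of that gene, so rows cannot be compared with each other. Cacna2d2, Cacna2d4 and Cacng4 are bright in 1 class, while Scn8a and Cacnb3 are spread over many.

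The differences between the libraries were small for most genes. Of 437 pairs of a gene and a class with the minimum, 15 were at least 2-fold apart and 59 at least 1.5-fold apart. Dentate granule-like nuclei had 0 of 34 genes that were at least 2-fold apart, where 6.35% of all genes with the minimum were. At 1.5-fold there were 6, namely Scn7a, Scn3b and Cacng3 higher and Cacng2, Cacna2d2 and Cacng6 lower in the library labelled knockout, 17.6% against 15.8% of all genes. In CA3-like nuclei 1 of 35 was 2-fold apart (Cacng5 higher) against 4.08% of all genes, and 6 were 1.5-fold apart, 17.1% against 13.3%. In CA1-like nuclei 1 of 32 was 2-fold apart (Cacna2d2 lower) against 7.34%, and 3 were 1.5-fold apart, 9.38% against 18.6%. In inhibitory-like nuclei none of 33 was past either fold, against 1.59% and 7.55% of all genes. The median log2 ratio of the channel genes was 0.02, -0.02 and 0.00 in the 3 main excitatory classes, where all genes had medians of 0.02, 0.08 and 0.10. The channel genes thus showed no larger share of 2-fold differences than all genes in these 4 classes, and a share of 1.5-fold differences near that of all genes in the first 2.

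With a stricter minimum of 50 UMIs and 10 CPM in the higher library, no channel gene was 2-fold apart in the 3 main excitatory classes, against 3.36%, 1.61% and 4.17% of all genes. At 1.5-fold under this minimum, 3 of 26 channel genes remained in dentate granule-like nuclei (Cacng3, Scn3b and Cacng2) against 7.8% of all genes. In CA3-like nuclei 2 of 25 remained (Scn9a and Cacng2) against 5.36%, and in CA1-like nuclei 2 of 25 (Cacna1g and Cacng2) against 10.7%. Cacng2 was the only channel gene past 1.5-fold in all 3 under the stricter minimum, and under the first minimum Cacna2d2 joined it on far fewer UMIs.

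**Figure D2:**
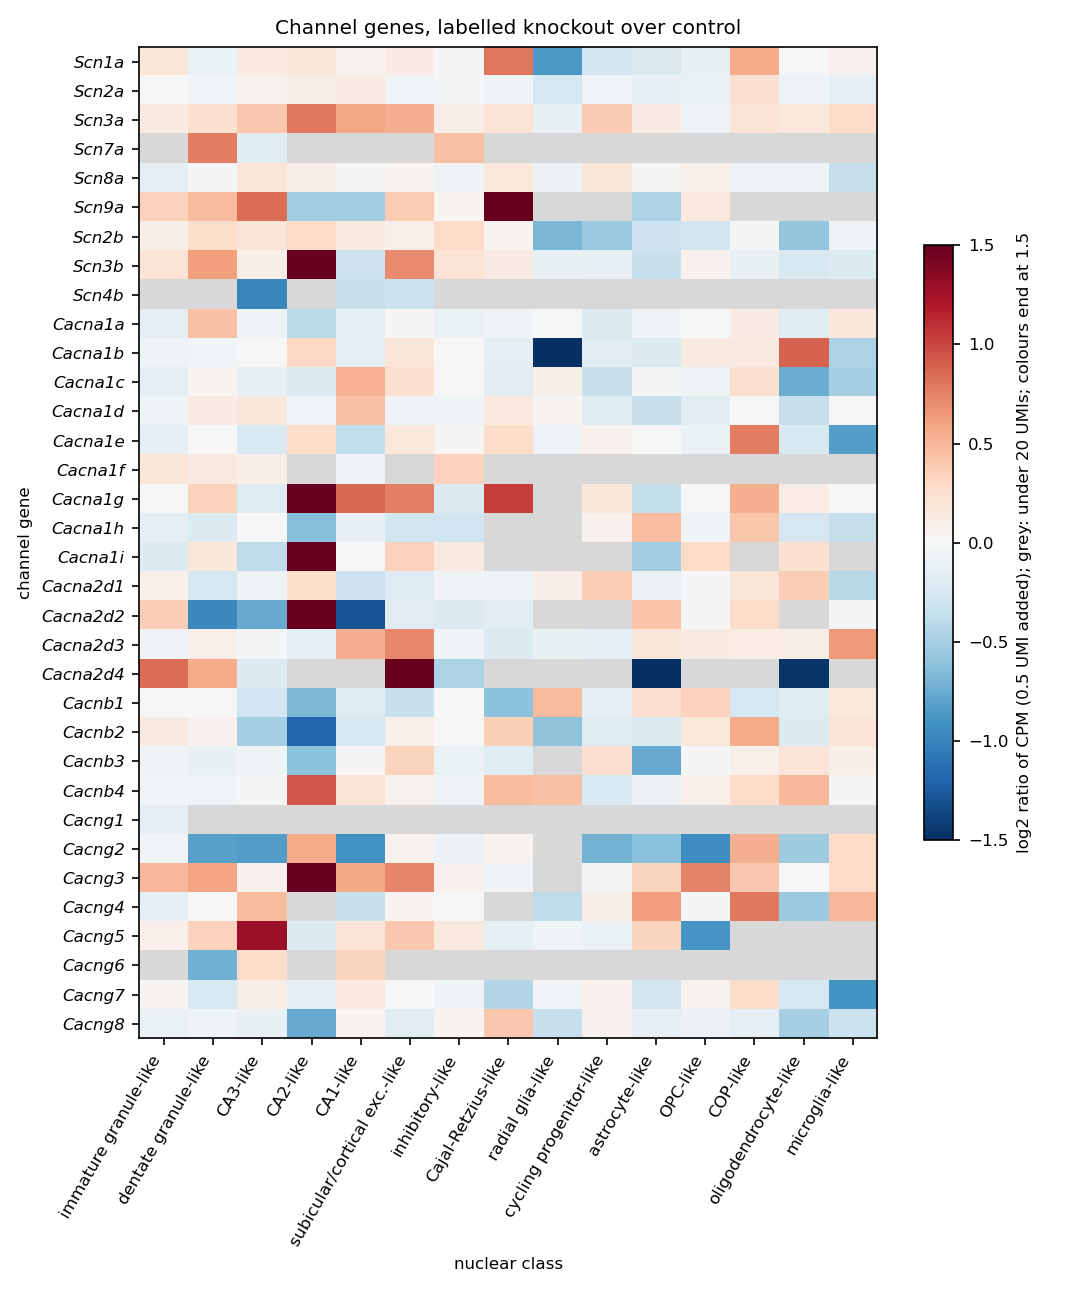
Log2 ratio of the library labelled knockout over control for 34 channel genes (rows, ordered by subunit type) in each of 15 classes (columns), red higher and blue lower, grey where fewer than 20 UMIs were read. The pores Scn2a and Scn8a are near white across neuronal classes, Cacng2 is blue in the 3 main excitatory classes (-0.81, -0.84 and -0.91), and the CA2-like column, which includes the small cluster, holds the deepest colours.

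Sodium channel pores that dominate in adult brain were close between the libraries. Scn2a, the pore of young axons and unmyelinated fibres, had 27521 control UMIs and 18845 in the other library in dentate granule-like nuclei, or 508 and 494 CPM. Its log2 ratio was -0.04 there, 0.05 in CA3-like nuclei and 0.12 in CA1-like nuclei. Scn8a had log2 ratios of -0.03, 0.18 and -0.02 in the same order. Scn1a, the pore of fast-spiking interneurons, stood at 561 and 553 CPM in inhibitory-like nuclei, and at -0.10, 0.15 and 0.04 in the 3 excitatory classes. No value of these 3 pores in the 4 classes came near 1.5-fold.

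Scn3a, a pore known from developing brain, was higher in the library labelled knockout in the excitatory classes. It had 14638 and 12205 UMIs in dentate granule-like nuclei, or 270 and 320 CPM (log2 ratio 0.24, 0.21 to 0.28). In CA3-like nuclei the levels were 74.2 and 98.6 CPM (0.41, 0.33 to 0.50). In CA1-like nuclei they were 78.4 and 117 CPM (0.58, 0.50 to 0.66), just under 1.5-fold. Subicular or cortical excitatory-like nuclei gave 136 and 196 CPM (0.53, 0.44 to 0.63), while oligodendrocyte precursor-like nuclei, which also carry Scn3a, gave 208 and 198 CPM (-0.07, -0.19 to 0.05). The ratio was 0.13 (0.06 to 0.20) in immature dentate granule-like nuclei. A higher value was not limited to excitatory classes. Cycling progenitor-like nuclei gave 0.39 (0.02 to 0.75) on 131 and 128 UMIs. Microglia-like nuclei gave 0.28 (-0.11 to 0.66), and radial glia-like nuclei -0.11 (-0.93 to 0.65). CA2-like nuclei were past 1.5-fold (0.79, 0.57 to 1.02), but at 0.47 (0.20 to 0.74) without their small cluster. The named excitatory classes thus lay on 1 side, and the CA2-like class alone was past 1.5-fold. Immature markers moved in some of these classes, in both directions. Dcx, a microtubule protein of young neurons, had 415 and 1081 UMIs in CA1-like nuclei (1.93) and 1048 and 1452 in CA3-like nuclei (0.74). Sox11, a transcription factor of young neurons, had 386 and 873 UMIs in CA1-like nuclei (1.72) and was near 0 in CA3-like nuclei (-0.02). The summed immature granule list gave -0.01 and -0.02 in CA1-like and CA3-like nuclei, but most of that sum was Camk1d, with 18246 of 19803 control UMIs in CA1-like and 30364 of 32819 in CA3-like nuclei. Camk1d itself was lower, at -0.18 and -0.07 in the same order. Sema3c gave -0.27 and 0.93, Neurod1 0.20 and -0.73, and Igfbpl1 0.20 and 0.54. Draxin, on 14 UMIs or fewer, gave 1.16 and 0.48. The intermediate progenitor list gave 0.85 in CA1-like and 0.32 in CA3-like nuclei. The Cajal-Retzius list gave 1.09 and 0.71 in the same order, and the radial glia list 0.45 and 0.95, each on 259 UMIs or fewer. Their part in the channel gene values was not tested.

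Scn9a, a pore of sensory neurons that is also found in brain, did not move in 1 direction. It was higher in CA3-like nuclei, with 216 and 321 UMIs (log2 ratio 0.84, 0.59 to 1.10), and in dentate granule-like nuclei, with 39.1 and 54.6 CPM (0.48, 0.39 to 0.57). In CA1-like nuclei it was lower, with 174 and 83 UMIs (-0.52, -0.92 to -0.14). Scn7a in dentate granule-like nuclei rested on 34 and 41 UMIs (0.77, 0.08 to 1.48), and its direction turned in female nuclei (-0.33) and in cluster 3 (-0.87).

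Among the sodium channel beta subunits, Scn3b had summed levels that differed in opposite directions in 2 classes. Scn3b binds pores without a covalent link and shifts the voltage at which they inactivate. In dentate granule-like nuclei it had 7580 and 8146 UMIs, or 140 and 214 CPM (log2 ratio 0.61, 0.56 to 0.66). In CA1-like nuclei it had 5347 and 2952 UMIs, or 165 and 133 CPM (-0.31, -0.38 to -0.25). CA1-like nuclei held the highest level of Scn3b in the control library, and dentate granule-like nuclei held it in the library labelled knockout. Subicular or cortical excitatory-like nuclei followed the granule direction, with 34.9 and 57.1 CPM (0.71, 0.53 to 0.89), and CA3-like nuclei were near 0 (0.09). That the ratios differ between classes was not tested.

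The dentate value of Scn3b held in both clusters, at 0.59 in cluster 1 and 0.45 in cluster 3. A UMI of Scn3b was found in 75.1% of control dentate granule-like nuclei (exact interval 73.8 to 76.4) and in 85.2% of those of the other library (84.0 to 86.4). After each nucleus was thinned to 2000 UMIs, which kept 4401 and 3371 of them, these were 24.9% and 33.3%. In CA1-like nuclei a Scn3b UMI was found in 90.05% and 81.03% of nuclei, but in 25.4% (23.4 to 27.5) and 24.6% (22.4 to 27.0) after thinning, so the lower share there was not seen at equal depth. In microglia-like nuclei, which should lack the gene, the thinned shares were 6.31% of 824 and 6.02% of 515 nuclei, and the unthinned ones 8.34% and 5.77%. Scn2b was not past 1.5-fold in any of the 3 main excitatory classes, with a dentate ratio of 0.26. In the control library it was highest in Cajal-Retzius-like nuclei (31.1 CPM). In CA3-like nuclei Scn4b had 15 and 6 UMIs, and its interval held 0 (-2.71 to 0.40).

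Summed over the whole class, the calcium channel pores with the minimum were under 1.5-fold in dentate granule-like and CA3-like nuclei. The largest dentate ratio among them was that of Cacna1a, with 28463 and 27206 UMIs, or 525 and 713 CPM (log2 ratio 0.44, 0.42 to 0.47). It was lower in immature dentate granule-like nuclei (638 and 576 CPM, -0.15, -0.19 to -0.10) and in CA1-like nuclei (733 and 665 CPM, -0.14, -0.17 to -0.11). The dentate difference was 0.16 in cluster 1 and 0.51 in cluster 3, so its size moved with the cluster. Cacna1b had a dentate log2 ratio of -0.04, Cacna1c of 0.03 and Cacna1d of 0.12. Cacna1f, an L-type pore of the retina, was read 94 and 73 times there (0.14, -0.32 to 0.60). In cluster 3 alone, with 3422 and 121 nuclei, Cacna1f was higher past 1.5-fold and Cacna1g higher past 2-fold.

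In CA1-like nuclei the calcium channel pores lay on both sides. Cacna1g, a T-type pore, had 776 and 967 UMIs, or 24.0 and 43.6 CPM (log2 ratio 0.86, 0.72 to 1.00). The L-type pores Cacna1c and Cacna1d stood at 292 and 417 CPM (0.52, 0.48 to 0.56) and at 479 and 652 CPM (0.44, 0.41 to 0.48). Cacna1e was lower, at 924 and 715 CPM (-0.37, -0.40 to -0.34). Only Cacna1g passed 1.5-fold. In CA3-like nuclei Cacna1c differed the other way (-0.11), and the interval of Cacna1g held 0 (-0.19, -0.52 to 0.13). Cacna1i, another T-type pore, was lower there at 47.3 and 36.4 CPM (-0.38, -0.50 to -0.25). In the larger CA3-like cluster alone, with 857 and 760 nuclei, Cacna1g and Cacna1i were both lower past 1.5-fold.

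The alpha2delta subunits, which are the targets of gabapentinoid drugs in the case of Cacna2d1 and Cacna2d2, differed by class. Cacna2d1 was lower in dentate granule-like nuclei at 1013 and 847 CPM (log2 ratio -0.26, -0.28 to -0.24) and in CA1-like nuclei at 1115 and 902 CPM (-0.31, -0.33 to -0.28). Cacna2d3 was higher in CA1-like nuclei, with 1253 and 1826 CPM (0.54, 0.52 to 0.56), and in subicular or cortical excitatory-like nuclei, with 121 and 200 CPM (0.72, 0.63 to 0.82), but near 0 in CA3-like nuclei (-0.03). Cacna2d2 was scarce in excitatory nuclei. It had 55 and 15 UMIs in CA1-like nuclei (-1.30, -2.26 to -0.49), and this was the only 2-fold difference of a channel gene there. The ratio was -0.33 in male-called nuclei, on 17 and 10 UMIs, and -0.20 after thinning, on 6 and 4 UMIs. In dentate granule-like nuclei it had 65 and 23 UMIs (-0.97, -1.75 to -0.29), but in cluster 3 alone the ratio turned to 1.58 on 45 and 4 UMIs. CA3-like nuclei had 25 and 12 UMIs of it, with an interval that held 0 (-1.92 to 0.26).

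Calcium channel beta subunits bind the pore from inside the cell. Cacnb2 was lower in CA3-like nuclei, with 52416 and 30652 UMIs, or 1779 and 1255 CPM (log2 ratio -0.50, -0.52 to -0.48). In CA1-like nuclei it was 3172 and 2668 CPM (-0.25), and in dentate granule-like nuclei 1498 and 1573 CPM (0.07). Cacnb4 stood at -0.04 in dentate granule-like nuclei, -0.02 in CA3-like nuclei and 0.21 in CA1-like nuclei. Cacnb1 and Cacnb3 were under 1.5-fold in all 3 classes.

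Within the gamma family, Cacng2 and Cacng3 differed in opposite directions in dentate granule-like and CA1-like nuclei. Their products are TARPs that bind AMPA receptors and the scaffold of the postsynaptic density, and the product of Cacng2 is known as stargazin. The Capicua protein binds DNA octamers of the kind TGAATGAA and TGAATGGA. These 2 octamers were searched on both strands of the 250 bases before each start in the RefSeq promoter table (build GRCm38.p6, not the build of the counts). A match was present in 681 of 32851 windows (2.073%). The table held 41 windows for 30 of the 40 channel genes, and 2 of the 41 had a match. A match is a description of the letters and not a binding site.

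Across the 3 main excitatory classes Cacng2 was lower in the library labelled knockout. Dentate granule-like nuclei gave 2195 control UMIs and 882 in the other library, or 40.5 CPM (38.8 to 42.3) and 23.1 CPM (21.6 to 24.7), a log2 ratio of -0.81 (-0.92 to -0.70). CA3-like nuclei gave 2810 and 1302 UMIs, or 95.4 and 53.3 CPM (-0.84, -0.94 to -0.74). In CA1-like nuclei it had 859 and 313 UMIs, or 26.6 and 14.1 CPM (-0.91, -1.10 to -0.72). These 3 intervals overlap each other. In the other well-read classes the values were closer: 57.2 and 55.7 CPM in immature dentate granule-like nuclei (-0.04, -0.19 to 0.11), 137 and 128 CPM in inhibitory-like nuclei (-0.09, -0.17 to -0.02) and 75.5 and 77.9 CPM in subicular or cortical excitatory-like nuclei (0.05, -0.09 to 0.18). Astrocyte-like, oligodendrocyte precursor-like and cycling progenitor-like nuclei had 47, 24 and 29 control UMIs of Cacng2 against 24, 12 and 13. Their log2 ratios of -0.62, -0.93 and -0.71 were past 1.5-fold as well, with intervals that held 0. The CA2-like values, which depend on a small cluster, are given further on.

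The share of nuclei with a Cacng2 UMI moved in the same direction. It was 33.9% (exact interval 32.5 to 35.3) and 20.1% (18.8 to 21.5) in dentate granule-like nuclei, 73.6% and 54.8% in CA3-like nuclei, and 31.7% and 17.3% in CA1-like nuclei. Thinned in the same way, the dentate shares came to 7.75% (6.98 to 8.58) and 4.27% (3.61 to 5.01), those of CA3-like nuclei 15.2% and 9.09%, and those of CA1-like nuclei 4.92% and 2.58%. In microglia-like nuclei 1.58% and 1.75% of thinned nuclei had a Cacng2 UMI, and 1.35% and 1.43% unthinned. Both libraries lay above that background in dentate granule-like and CA3-like nuclei. In CA1-like nuclei the thinned share of the library labelled knockout had an interval of 1.81 to 3.57%, which overlaps that of microglia-like nuclei. Cacng2 was lower in both dentate clusters (-1.08 in cluster 1 and -0.67 in cluster 3) and in both CA3-like clusters (-0.87 and -0.37).

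Inhibitory-like nuclei hold the most Cacng2, and markers of inhibitory neurons were read in the excitatory classes too. Summed over the list, all 8 inhibitory markers gave 640 and 718 UMIs in CA3-like nuclei (log2 ratio 0.44) and 669 and 554 UMIs in CA1-like nuclei (0.27). Most of these UMIs were of Erbb4 and Adarb2, and the other members went both ways: Gad2 gave -0.04 and 1.31, Slc32a1 0.27 and 0.05, and Dlx6os1 -0.42 and -0.15 in CA3-like and CA1-like nuclei. The dentate sum was 1648 and 2062 CPM, most of it Adarb2. The markers of GABA synthesis and transport did not move together there: Gad1 was higher at 46.2 and 59.9 CPM, while Gad2 was lower at 2.81 and 1.55 CPM and Slc32a1 at 2.79 and 1.89 CPM. The level of Gad2 in inhibitory-like nuclei was 383 and 431 CPM. Other marker lists moved in dentate granule-like nuclei as well. The granule list was 4047 and 2957 CPM. Its members Trpc6, Stxbp6 and Rfx3 gave log2 ratios of -1.67, -0.91 and -0.31. Calb1, Prox1 and Dsp gave -0.20, -0.15 and -0.15, and C1ql2 was higher (0.51, 0.35 to 0.67). The immature granule list was 333 and 476 CPM, and the Cajal-Retzius list was 7.59 and 47.7 CPM, with 188 and 1412 UMIs of Reln and 44 and 266 of Trp73. The other 5 genes of that list had intervals that held 0. The part of these lists in the channel gene values was not tested. A transcript that overlaps Cacng2 on the other strand, A730060N03Rik, was lower too, with 573 and 205 UMIs in CA3-like nuclei, and how reads were assigned to strands is not given in the sources used here. Transcripts on the other strand of other channel genes went both ways. Within Cacnb2, Gm10848 and Gm13269 gave -0.56 and -0.43 in CA3-like nuclei, and within Cacna2d3, Lrtm1 gave 0.62 in CA1-like nuclei, in the direction of the channel gene. Lrtm2 gave 0.64 (0.12 to 1.17) in astrocyte-like nuclei, opposite to Cacna2d4. Within Scn9a, Gm13629 gave 0.47 in dentate granule-like and 0.42 in CA3-like nuclei, in the direction of Scn9a. In CA1-like nuclei it gave 0.42 (-0.08 to 0.92), opposite to Scn9a. Gm13629 was read at 176 CPM in inhibitory-like control nuclei, the class where Scn9a was highest. The reads of such pairs cannot be told apart here.

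Cacng3 was higher, where Cacng2 was lower, in the first and the last of these classes. Dentate granule-like nuclei held 7504 and 7947 UMIs, or 138.5 and 208 CPM (log2 ratio 0.59, 0.54 to 0.63), just past 1.5-fold. Over the alternatives that ratio lay between 0.44, in cluster 1 alone, and 0.72, in female-called nuclei, so it was not past 1.5-fold in all of them. In CA1-like nuclei it had 3719 and 3774 UMIs, or 115 and 170 CPM (0.57, 0.50 to 0.63), just under 1.5-fold, and in subicular or cortical excitatory-like nuclei 51.8 and 85.7 CPM (0.73, 0.58 to 0.88). CA3-like nuclei gave 32.5 and 34.1 CPM (0.07, -0.07 to 0.21) and inhibitory-like nuclei 113 and 117 CPM (0.06, -0.03 to 0.14). The share of dentate granule-like nuclei with a Cacng3 UMI was 66.8% and 81.5%, and 22.5% and 32.3% after thinning. In microglia-like nuclei it was 2.69% and 2.78%, and 1.82% and 2.91% after thinning.

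The other members of the family were read in the same classes. Cacng8, the main TARP of hippocampal pyramidal cells, had log2 ratios of -0.07, -0.11 and 0.04 in the 3 main excitatory classes. Cacng7 stood at -0.23, 0.10 and 0.15 in the same order. Cacng5 was 2-fold higher in CA3-like nuclei on 10 and 21 UMIs (1.30, 0.19 to 2.59), but 0.29 with called doublets kept, 0.07 after thinning and -0.50 in female-called nuclei. In dentate granule-like nuclei, where it had 781 and 698 UMIs, its ratio was 0.34 and differed by cluster. Cluster 1 gave 6.97 and 18.5 CPM on 77 and 678 UMIs (1.40, 1.06 to 1.77), and cluster 3 had 704 and 20 UMIs (-0.19, -0.94 to 0.42). Cacng4 gave -0.74 (-1.35 to -0.09) in cluster 1, on 34 and 68 UMIs, and 0.97 (-1.11 to 2.23) in cluster 3, on 69 and 4 UMIs. Over the whole class it was 1.90 and 1.89 CPM. Cacng6 had 52 and 22 UMIs in dentate granule-like nuclei, and its interval reached 0.01. Its direction turned in cluster 3 alone, with 3422 and 121 nuclei, where Cacng6 was higher past 2-fold. Cacng1, the skeletal muscle member, had the minimum only in immature dentate granule-like nuclei, on 11 and 9 UMIs.

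**Figure D3:**
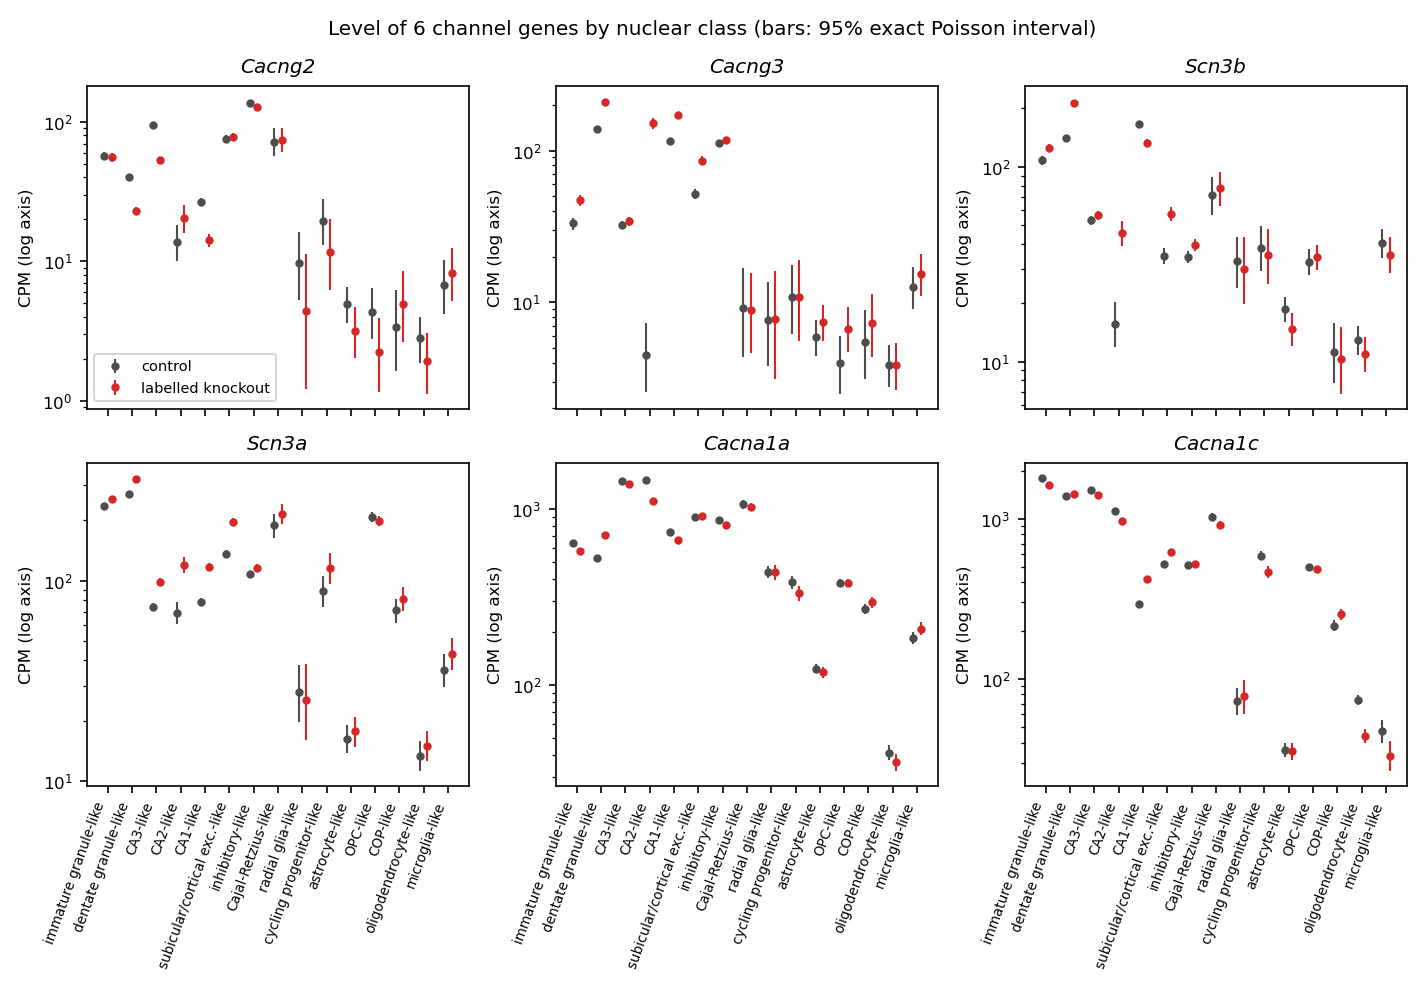
Level in CPM (log axis) of 6 channel genes in each of 15 classes, control in grey and the library labelled knockout in red, with 95% exact Poisson intervals. Red lies below grey for Cacng2 in the 3 main excitatory classes and close to it in inhibitory-like nuclei, and for Scn3b above it in dentate granule-like but below it in CA1-like nuclei.

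Each pool held 1 female and 2 males, and nuclei could be split by Xist and Y-linked transcripts. The female-called nuclei of the 2 libraries thus compare 1 mouse with 1 mouse. For Cacng2 the log2 ratios of female-called and male-called nuclei came to -0.99 and -0.72 in dentate granule-like nuclei, -0.91 and -0.76 in CA3-like nuclei and -1.43 and -0.70 in CA1-like nuclei. Cacng3 in dentate granule-like nuclei gave 0.72 and 0.55, and Scn3b 0.72 and 0.54. Cacna1g in CA1-like nuclei gave 0.95 and 0.80, Scn9a in CA3-like nuclei 0.91 and 0.79, and Cacnb2 in CA3-like nuclei -0.64 and -0.45. These genes had 1 direction in both sexes. The lower Scn3b of CA1-like nuclei, in contrast, was near 0 in female-called nuclei (-0.02) and -0.51 in male-called nuclei. Among channel genes with the minimum in both sexes, the sexes shared the sign for 20 of 33, 21 of 29 and 20 of 29 in the 3 main excitatory classes. With a log2 ratio of at least 0.2 either way, these were 14 of 16, 10 of 10 and 15 of 16. That ratio includes the same female-called and male-called nuclei, so the cut itself favours a shared sign. The share over all genes was not computed. The 3 exceptions past the cut were Scn7a and Cacna1h in dentate granule-like nuclei and Cacng5 in CA1-like nuclei.

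**Figure D4:**
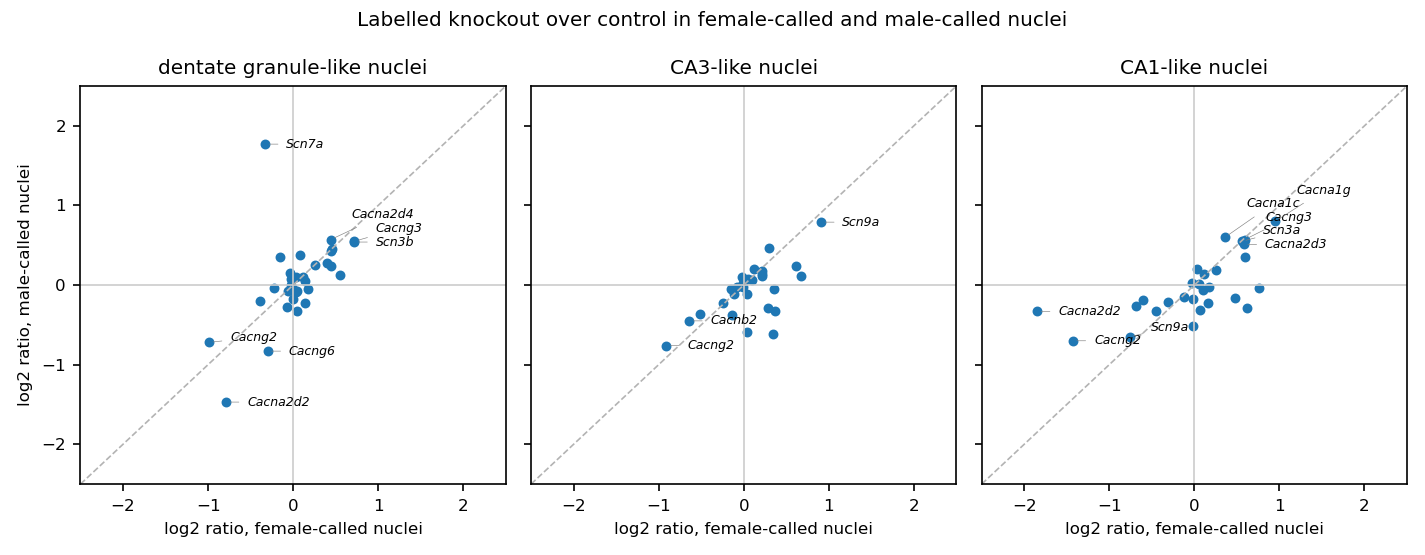
Log2 ratio of the library labelled knockout over control in female-called (x axis) and male-called nuclei (y axis) for channel genes with at least 20 UMIs in both sexes, in 3 classes; the dashed line marks equal ratios. Cacng2 lies in the lower left of all 3 panels (-0.99 and -0.72, -0.91 and -0.76, -1.43 and -0.70), and Scn7a in dentate granule-like nuclei lies far from the line.

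Immature and mature granule cells share a lineage, so the step between the classes was set out within each library. In the control library the largest steps down from immature to dentate granule-like nuclei among well-read genes were those of Cacng4 (29.4 to 1.90 CPM, log2 -3.95) and Cacna1g (57.2 to 11.0 CPM, -2.37). The largest steps up were those of Cacng3 (33.1 to 138.5 CPM, 2.07), Cacng5 (5.75 to 14.4 CPM, 1.32), Cacna1h (1.28) and Cacnb2 (1.26). The other library gave -3.81 for Cacng4, -2.02 for Cacna1g, 2.15 for Cacng3, 1.58 for Cacng5, and 1.21 for both Cacna1h and Cacnb2. These steps thus had the same direction in both libraries. The mature class was mostly cluster 3 in the control and mostly cluster 1 in the other library, so the steps end in different clusters of the clustering used here. Control Cacng5, for example, was 6.97 CPM in cluster 1 and 16.3 CPM in cluster 3.

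Some channel genes had steps whose counting intervals did not overlap between the libraries. The share of all genes with such steps was not computed, and counting intervals are narrow on many UMIs. The sign of the step differed for Cacna1a and Cacna1d, and for Scn1a with an interval in the other library that held 0. Cacng2 gave -0.50 in the control (-0.61 to -0.38) and -1.27 in the other library (-1.41 to -1.12). Cacna1a went from 638 to 525 CPM in the control (-0.28, -0.31 to -0.24) and from 576 to 713 CPM in the other library (0.31, 0.27 to 0.34), so its direction turned. In the control library Cacna1a was 638 CPM in cluster 1, as in immature nuclei, and 497 CPM in cluster 3, so the control step down was seen in cluster 3 alone. Cacna1d gave -0.13 (-0.16 to -0.09) and 0.05 (0.01 to 0.08), and Scn1a 0.23 (0.16 to 0.30) and -0.05 (-0.11 to 0.02). Scn3b stepped up by 0.37 (0.29 to 0.45) and 0.77 (0.69 to 0.85), and Cacna2d1 by 0.92 (0.89 to 0.96) and 0.58 (0.54 to 0.62). The genes described were chosen after their values were seen. The immature granule markers of dentate granule-like nuclei, given above, moved between the libraries too, and their part in these steps was not tested.

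**Figure D5:**
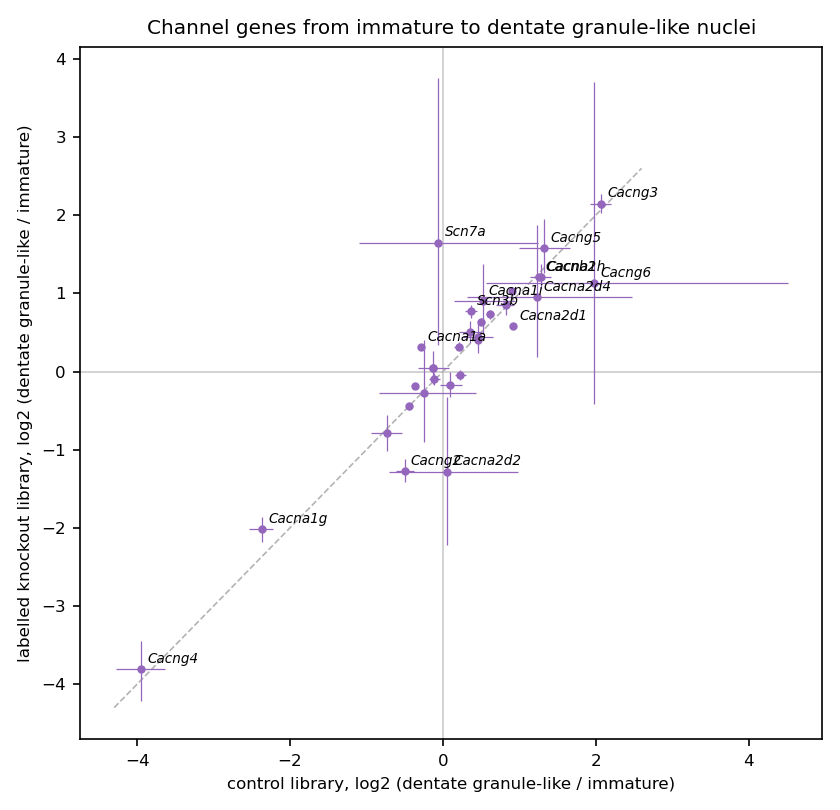
Step of channel genes from immature to dentate granule-like nuclei as a log2 ratio, in the control library (x axis) and the library labelled knockout (y axis), with 95% counting intervals; the dashed line marks equal steps. Most genes follow the line from Cacng4 (-3.95 and -3.81) to Cacng3 (2.07 and 2.15), while Cacng2 lies below it and Cacna1a and Scn3b above it.

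In immature dentate granule-like nuclei 0 of 32 channel genes were 2-fold apart (2.03% of all genes) and 1 was 1.5-fold apart, Cacna2d4 on 9 and 15 UMIs (8.25% of all genes). Subicular or cortical excitatory-like nuclei had 1 of 31 past 2-fold, Cacna2d4 on 6 and 17 UMIs (3.54% of all genes). They had 5 past 1.5-fold (12.3% of all genes), all higher: Cacna2d4, Cacng3, Scn3b, Cacna2d3 and Cacna1g, the last with 288 and 451 UMIs (0.75, 0.53 to 0.97). The class joins cluster 18 (299 and 367 nuclei) and cluster 20 (286 and 283 nuclei). Cacna2d3, Cacna1g and Scn3a were past 1.5-fold only in cluster 18, Cacng3 only in cluster 20, and Scn3b in both. Its own marker list gave -0.15, the hilar mossy list 0.65 and the radial glia list 0.77. Their part in these values was not tested.

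CA2-like nuclei had 6 of 28 channel genes past 2-fold, against 11.1% of all genes, and 12 past 1.5-fold, against 25.5%. The 6 were Cacng3, Scn3b, Cacna2d2, Cacna1g and Cacna1i, which were higher, and Cacnb2, which was lower. Both counts include the small cluster of 3 and 66 nuclei. Scn3b gave 1.53 with that cluster and 0.52 (-0.05 to 1.09) without it. Cacng3, for example, had 16 and 586 UMIs with that cluster (log2 ratio 5.03) and 6 and 2 without it. Without it, 2 of 26 genes were past 2-fold (5.96% of all genes) and 6 past 1.5-fold (18.4%). The 2 were Cacng2, with 44 and 4 UMIs (-2.73, -4.83 to -1.43), and Cacna1i, with 35 and 10 UMIs (-1.19, -2.41 to -0.19). With the small cluster Cacng2 had 49 and 79 UMIs (0.56), so its direction turned with it. Cacnb2 was lower with the small cluster (-1.19) and without it (-0.59).

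Cajal-Retzius-like nuclei had 2 of 26 past 2-fold, Scn9a on 4 and 16 UMIs and Cacna1g on 8 and 21 UMIs (5.05% of all genes). With called doublets kept these were 0.69 and 0.65, under 2-fold. They had 4 past 1.5-fold (16.6%), among them Scn1a with 54 and 116 UMIs (0.80, 0.33 to 1.30). Their defining subunits were close, with 592 and 526 CPM for Cacna2d2 and 2778 and 2622 CPM for Cacna2d1. Marker lists of other classes moved both ways there. The inhibitory list had 136 and 427 UMIs (1.35) and the CA3 list 183 and 486 (1.11). The granule list gave -0.56, the microglia list -0.82 and the Cajal-Retzius list itself -0.25. Their part in these values was not tested.

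In oligodendrocyte-like nuclei Cacna2d4 had 292 and 90 UMIs, or 28.2 and 10.2 CPM (log2 ratio -1.46, -1.83 to -1.12). It was among the 2 of 28 genes past 2-fold, against 5.38% of all genes. At 1.5-fold there were 5, against 15.5%, with Cacna1c lower at 73.9 and 43.9 CPM (-0.75, -0.93 to -0.57), Scn2b lower on 55 and 31 UMIs, and Cacna1b higher at 15.9 and 29.6 CPM (0.89, 0.61 to 1.19). Cacnb4 was just under it at 391 and 553 CPM (0.50, 0.44 to 0.56). The class joins 2 clusters. In the larger, with 1024 and 808 nuclei, Cacna1c, Cacna1b and Cacnb4 gave -0.94, 1.09 and 0.67, and in the smaller, with 205 and 192 nuclei, 0.26, -0.30 and 0.12. The oligodendrocyte marker list was level between the libraries in the class (log2 ratio -0.02). Other lists moved there, with 107 and 182 CPM for the CA3 list (0.77), 189 and 253 CPM for the astrocyte list (0.42) and 60.6 and 37.0 CPM for the radial glia list (-0.71). Their part in these values was not tested.

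Earlier stages of that lineage had shares of channel genes past 1.5-fold that were near or below those of all genes. The median log2 ratio of the channel genes was 0.21 in committed oligodendrocyte precursor-like and -0.02 in oligodendrocyte precursor-like nuclei. All genes had a median of 0.04 in both. Differences between the stages were not tested. Committed oligodendrocyte precursor-like nuclei had 0 of 26 past 2-fold (3.78% of all genes) and 2 past 1.5-fold (13.7%). These were Cacng4, with 279 and 429 UMIs (0.79, 0.57 to 1.01), and Cacna1e, with 81 and 123 UMIs (0.77, 0.36 to 1.20). Oligodendrocyte precursor-like nuclei had 0 of 29 (1.97% of all genes) and 3 (8.56%), each on 36 UMIs or fewer in either library, while their leading TARP Cacng4 was 461 and 455 CPM.

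In astrocyte-like nuclei 1 of 30 genes was past 2-fold, Cacna2d4 on 28 and 7 UMIs (2.08% of all genes; -0.72 in male-called nuclei), and 4 were past 1.5-fold (9.21%). Cacng4 was the best read of these, with 196 and 241 UMIs, or 20.6 and 31.9 CPM (0.63, 0.35 to 0.91). The median log2 ratio of the channel genes in astrocyte-like nuclei was -0.13, beside 0.04 for all genes. Their median absolute log2 ratio was 0.28, beside 0.16. Radial glia-like nuclei had 1 of 21 past 2-fold, Cacna1b on 23 and 2 UMIs (3.83% of all genes; log2 ratio -2.56, but -0.70 on 77 and 26 UMIs with called doublets kept), and 4 past 1.5-fold (15.9%). Their Cacnb2 was lower at 371 and 244 CPM (-0.60, -0.84 to -0.38). Cycling progenitor-like nuclei had 0 and 1 of 26 (3.11% and 13.6% of all genes), the 1 being Cacng2 on 29 and 13 UMIs. Microglia-like nuclei had 0 and 3 of 26 (2.21% and 9.96%). In these Cacna1e was lower with 251 and 114 UMIs (-0.83, -1.17 to -0.51) and Cacna2d3 higher with 153 and 193 UMIs (0.64, 0.32 to 0.95). Microglia-like nuclei were the shallowest class, with medians of 2130 and 1718 UMIs, and the part of depth in these values was not tested.

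A set of 3 lists of genes that work with these channels were read in the same way. The sodium channel partners (fibroblast growth factor homologous factors, ankyrins, calmodulins and the NALCN complex) had 17 of 18 symbols in the files. None of the 17 was past 1.5-fold in dentate granule-like, CA1-like or inhibitory-like nuclei, where 15.8%, 18.6% and 7.55% of all genes were. In CA3-like nuclei, where 13.3% of all genes were past it, 2 of the 17 were. Nedd4l, a ubiquitin ligase that removes channels from the membrane, was higher at 270 and 418 CPM (log2 ratio 0.63, 0.59 to 0.67), and Fgf11 was lower on 20 and 7 UMIs. In oligodendrocyte-like nuclei 3 of 16 were past it, against 15.5% of all genes, and these belong to the sodium leak channel complex. Nalcn, its pore, was lower at 176 and 106 CPM (-0.73), its partner Nalf1 was lower at 414 and 210 CPM (-0.98), and Unc79 was higher at 33.2 and 80.5 CPM (1.28, 1.09 to 1.47).

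Of the 15 calcium channel partners, 2 of the 14 with the minimum were past 1.5-fold in dentate granule-like nuclei, both lower, where 15.8% of all genes were. Cabp1, a calcium-binding protein that modulates L-type and P/Q-type pores, had 958 and 212 UMIs, or 17.7 and 5.56 CPM (log2 ratio -1.67, -1.89 to -1.45). Stac, an adaptor of L-type pores, had 104 and 32 UMIs (-1.18, -1.81 to -0.61). In CA1-like nuclei Cabp1 was again lower, at 35.1 and 20.9 CPM (-0.75), but Stac was higher, at 130 and 217 CPM (0.74, 0.68 to 0.80), as it was in CA3-like nuclei (0.62). Rem2, a small GTPase that inhibits calcium channels, was higher in CA1-like nuclei on 123 and 141 UMIs (0.74, 0.38 to 1.10). None of the 14 was past 1.5-fold in inhibitory-like nuclei, against 7.55% of all genes.

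The AMPA receptor genes give the setting of the TARP values. The receptor subunits (the Gria genes) were under 1.5-fold in the 3 main excitatory classes. Gria2, which makes the receptor impermeable to calcium, was 1664 and 1341 CPM in dentate granule-like nuclei (-0.31), 1869 and 1589 CPM in CA3-like nuclei (-0.23) and 1952 and 1591 CPM in CA1-like nuclei (-0.29). Of the 13 genes, 2 were past 1.5-fold in dentate granule-like nuclei, which is near the 15.8% of all genes. Olfm2, a secreted protein found in receptor complexes, was higher with 977 and 1576 UMIs (1.20, 1.08 to 1.31), and Nptx2, a pentraxin that clusters receptors, was lower with 114 and 30 UMIs (-1.40, -2.05 to -0.83). In CA1-like nuclei, where 18.6% of all genes were past 1.5-fold, 2 of the 13 were, both auxiliary subunits and higher: Shisa9 at 52.0 and 110 CPM (1.08, 0.99 to 1.17) and Cnih3 at 38.3 and 69.0 CPM (0.85, 0.74 to 0.96). In CA3-like nuclei 3 of the 13 were past it, against 13.3% of all genes. Cnih3 was higher there as well, with 198 and 301 UMIs (0.87, 0.61 to 1.14), Olfm3 was higher on 98 and 155 UMIs (0.93) and Nptx2 lower on 58 and 24 UMIs (-0.99). In inhibitory-like nuclei 1 of the 13 was past it, Nptx2 again lower, against 7.55% of all genes. Nptx2 was also lower past 1.5-fold in immature dentate granule-like, CA2-like, subicular or cortical excitatory-like, astrocyte-like, cycling progenitor-like, oligodendrocyte-like and microglia-like nuclei. It was under 2-fold in inhibitory-like, immature dentate granule-like, astrocyte-like and microglia-like nuclei. Counting intervals of Nptx2 in these classes are not given here, so the list is a description of direction only. The medians of the 3 lists in dentate granule-like nuclei were 0.04, -0.19 and 0.03, beside 0.02 for all genes.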

How the data were processed

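Raw UMI counts per gene and nucleus were deposited, counted with Cell Ranger 8.0.1 per the file headers, on mm39 per the submitters' processing notes. The strand setting is not given in the sources used here. Barcodes with fewer than 500 genes or over 5% mitochondrial UMIs, and doublets called by Scrublet in scanpy 1.11.5 (3278 in the control and 2474 in the other library), were left out. The rest were clustered together (3000 variable genes, 2 of them channel genes; 30 principal components; leidenalg 0.10.2 at resolution 1). A cluster was named after 1 of 22 marker sets if at least 3 of its markers were raised, their mean log2 fold reached 0.5 and its leading genes did not point to another set; other clusters stayed unnamed and enter no class.

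UMIs were summed per class and library, scaled to CPM and compared as log2 ratios with 0.5 UMI added. Intervals are exact Poisson for sums, conditional binomial for ratios and Clopper-Pearson for shares. The ratio code was tested on simulated data. Alternatives were DESeq2 1.42.0 and edgeR 4.0.16 scaling, other minimums and pseudocounts, each sex, thinning to 2000 UMIs and other clusterings. Female nuclei had 2 or more Xist UMIs with none of 4 Y-linked genes, and male nuclei no Xist and at least 1 Y-linked UMI.

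The text names every member at least 2-fold apart in a class, those at least 1.5-fold apart in the 3 main excitatory classes with an interval leaving out 0, and the leading members of each subunit type by class; other names were chosen after their values were seen. Results of 2 members, which stay in all counts but in no figure, are not reported here. The members and lists were chosen with earlier results of these data known. GENCODE for GRCm38, which held 31961 of 33696 gene identifiers (94.85%), served only to find overlapping genes.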

Additional observations from a re-analysis of the deposited data

Results flagged for a closer look

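Some channel genes were at least 1.5-fold higher in one class and at least 1.5-fold lower in another, with counting intervals that left out 0. With 1 library per group these differences between classes were not tested. Cacna2d4 gave a log2 ratio of 1.53 in subicular or cortical excitatory-like nuclei on 6 and 17 UMIs, but -1.46 in oligodendrocyte-like nuclei on 292 and 90 UMIs and -1.59 in astrocyte-like nuclei on 28 and 7 UMIs. Cacna1b gave 0.89 in oligodendrocyte-like nuclei, with 165 and 262 UMIs, and -2.56 in radial glia-like nuclei, with 23 and 2 UMIs, where it was -0.70 with called doublets kept. Cacna1e gave 0.77 in committed oligodendrocyte precursor-like and -0.83 in microglia-like nuclei. Scn1a gave 0.80 in Cajal-Retzius-like and -0.86 in radial glia-like nuclei, the latter on 56 and 19 UMIs. In Cajal-Retzius-like nuclei the inhibitory and CA3 marker lists gave 1.35 and 1.11, and their part was not tested. Cacna2d2 gave 3.41 in CA2-like nuclei, all but 1 of whose UMIs in the 2 libraries came from the small cluster of 3 and 66 nuclei, against -1.30 among CA1-like nuclei and -0.97 among dentate granule-like ones.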

How the results depend on the processing

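Each ratio named by the rule and each count of channel genes at least 2-fold apart was recomputed under the alternatives. Of the recomputed ratios, 211 stayed within the counting interval of the value reported, 40 left it with the same sign and 13 turned sign. No paired analysis was possible because each group is 1 library. In dentate granule-like nuclei the count of 0 became 1 with called doublets kept, 5 with no minimum, 6 at 1.5-fold, 2 in male-called nuclei, 3 in cluster 1 alone and 4 in cluster 3 alone; of all genes 5.77%, 21.3%, 15.8%, 6.01%, 7.39% and 15% were past the fold in these settings. In CA3-like nuclei the count of 1 became 0 with doublets kept, with the minimum of 50 UMIs and 10 CPM, in female-called nuclei, after thinning, and in the clustering without channel genes and genes 2-fold apart. It became 2 with median-of-ratios or TMM factors, with 0.1 UMI added and without the cluster of lower marker fold, 3 with no minimum and 6 at 1.5-fold. It stayed at 1 in male-called nuclei and at the lower clustering resolution, but as 1 lower gene in place of Cacng5. All genes gave 3.88% to 6.29% in these settings, except 1.61% with the stricter minimum, 21.1% with none and 13.3% at 1.5-fold. In CA1-like nuclei the count of 1 became 2 with median-of-ratios factors and in female-called nuclei, 0 with the stricter minimum, in male-called nuclei and after thinning, 5 with no minimum and 3 at 1.5-fold, where all genes gave 7.13%, 9.29%, 4.17%, 6.8%, 6.53%, 24.6% and 18.6%. In inhibitory-like nuclei the count of 0 became 2 with no minimum and 1 after thinning, against 18.8% and 1.83% of all genes.

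At the lower clustering resolution the CA2-like class shrank to the small cluster, and Cacnb2, Cacna2d2, Cacna1g and Cacna1i gave 2.13, -1.12, -1.32 and -0.50. Without that cluster Cacng3, Cacna2d2 and Cacna1i gave -0.81, -1.01 and -1.19. Cacng5 in CA3-like nuclei gave -0.50 in female-called nuclei, and Scn9a in Cajal-Retzius-like nuclei -3.09 in male-called nuclei. Scn7a in dentate granule-like nuclei gave -0.33 in female-called nuclei, -0.15 after thinning and -0.87 in cluster 3, where Cacna2d2 gave 1.58. Cacng2 kept its sign in every alternative, between -1.08 and -0.67 in dentate granule-like, -0.92 and -0.74 in CA3-like and -1.43 and -0.70 in CA1-like nuclei. The cause was not tested. The alternatives by cluster were chosen after seeing the data. Median-of-ratios factors moved all ratios by -0.12 to 0.08, depending on the class.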

Other observations

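Some clusters that carried no class name repeat part of the pattern. The closest marker set of those described here was CA1 or subicular or cortical excitatory, but none of them met the naming rule. Unnamed cluster 7, nearest to CA1 by its markers, held 987 control nuclei and 1048 of the other library, and Cacng2 was lower there with 537 and 303 UMIs (log2 ratio -0.70, -0.91 to -0.50). Cacna2d2 was lower in it too, with 113 and 36 UMIs (-1.51, -2.11 to -0.98), as it was in unnamed cluster 12, with 162 and 74 UMIs (-0.78, -1.20 to -0.38). Cacng2 was near 0 in unnamed clusters 12 and 14 (0.24, -0.34 to 0.81, and 0.04, -0.13 to 0.21) and -0.27 in cluster 21. Scn3a was higher in all 4 of these clusters, with log2 ratios of 0.48, 0.63, 0.45 and 0.36 in clusters 7, 12, 14 and 21. Other genes departed from the named classes. Scn9a was higher past 1.5-fold in clusters 7, 12 and 14, opposite to CA1-like nuclei. Cacna2d2 was lower past 1.5-fold in cluster 14 too, but higher past it in cluster 18 of the subicular or cortical excitatory-like class.

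Inhibitory-like clusters gave different ratios. Cacng3 gave 0.65 (0.43 to 0.88) in cluster 16, led by Htr3a and Vip, and -0.55 (-0.94 to -0.17) in cluster 22, while cluster 10, led by genes such as Pvalb and Lhx6, gave 0.05. Cacng2 gave -0.39 (-0.61 to -0.18) in cluster 22, 0.08 in cluster 16 and -0.06 in cluster 10. These clusters were singled out after their values were seen.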
